A study of Caenorhabditis elegans with 6 samples.

Results

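Glutathione peroxidases and peroxiredoxins are the enzymes by which *Caenorhabditis elegans*, besides its catalases, reduces hydrogen peroxide and organic peroxides. The 10 genes described here were taken by name: the 7 glutathione peroxidase genes gpx-1, gpx-2, gpx-3, gpx-5, gpx-6, gpx-7 and gpx-8 and the 3 peroxiredoxin genes prdx-2, prdx-3 and prdx-6. All 10 were found by WormBase ID among the 46748 features of the count table, and all 10 had enough reads to be tested. Libraries were made from total RNA of whole hermaphrodites of the standard laboratory strain N2 at an age of 5 days. There were 3 with the perturbation label Y6B3B.9, the name of a worm gene. The other 3 had the label L4440, the name of the plasmid known as the empty vector of feeding RNA interference. Strain, sex, tissue and age were the same in both groups, and the perturbation label was the only stated difference. The labels do not say how or in which direction Y6B3B.9 was perturbed, how many worms went into a library, or whether libraries came from separate cultures. The p-values therefore measure the spread between these libraries, which may be technical.

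Both enzyme families act through a reactive cysteine or selenocysteine that is oxidised by the peroxide and must then be reduced again. Glutathione peroxidases of mammals often carry selenocysteine, whereas those of the worm carry cysteine. Glutathione is returned to its reduced form by glutathione reductase, peroxiredoxins are mostly returned by thioredoxin and thioredoxin reductase, and the electrons of both routes come from NADPH. Among the products, GPX-1, GPX-2, GPX-6 and GPX-7 are known as relatives of the mammalian enzyme that reduces lipid hydroperoxides in membranes. PRDX-2 is the main cytosolic peroxiredoxin of the worm, PRDX-3 is the mitochondrial one, and PRDX-6 belongs to the class with a single catalytic cysteine.

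Library depth ranged from 23103541 to 32012257 reads assigned to genes. Y6B3B.9 itself was higher under its own label, with 31.7, 37.6 and 38.1 CPM (reads of a gene scaled to library size with TMM factors) against 23.1, 22.4 and 22.9 under L4440. It changed by 0.65 on the log2 scale (SE 0.074, BH-adjusted p = 1.26e-06, where BH-adjusted stands for the p of edgeR's quasi-likelihood test after Benjamini-Hochberg adjustment here and below, and ranges over alternatives include the other tools). By exact permutation of the labels (two-sided) p was 0.1, the lowest value that this number of libraries can reach. Directions below are between labels only: "higher" or "rose" means higher in libraries with the Y6B3B.9 label. Differences between the labels were spread over most of the transcriptome, with 84.1% of 14265 tested genes past an adjusted p of 0.05, 46.4% higher and 37.7% lower, so a share of members called near these values is no result about the members. Over all tested genes the log2 change had a median of 0.22 with TMM factors. The median was 0.0659 when DESeq2's size factors were used and 0.51 when libraries were scaled by their totals alone. Higher genes made up 55.2% of the called genes with TMM factors and 67.4% when scaled by totals. They made up 49.7% with DESeq2's size factors and 45.9% with the trend of log2 change on gene length removed. Which direction held the majority thus depended on the scaling.

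gpx-5 had the largest rise of the 10 genes, and prdx-2 and prdx-3 were the 2 that fell. Of the 7 glutathione peroxidase genes, 5 rose (gpx-1, gpx-3, gpx-5, gpx-6 and gpx-8) and 2 did not pass the test (gpx-2 and gpx-7). Of the 3 peroxiredoxin genes, prdx-2 and prdx-3 fell to about 0.700 and 0.709 times their L4440 level. The third, prdx-6, was called higher at a ratio of 1.09, but it was below 0 on the log2 scale with DESeq2's size factors. Among all tested genes 84.1% were called, 46.4% higher and 37.7% lower. Among tested genes within the length range of the 10, 53% were called higher and 28.4% lower. In all, 8 of 10 genes were called, 6 higher and 2 lower. This split lies near those shares, so it is no result about the 10 genes as a set. With DESeq2's size factors the count was 5, of which 3 were higher and 2 lower, and it was the same without any 1 of Y6B3B.9 replicate 2, L4440 replicate 2 and L4440 replicate 3. With the trend of log2 change on gene length removed it was 6, of which 1 was higher (gpx-5) and 5 were lower (gpx-2, gpx-7, prdx-2, prdx-3 and prdx-6).

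**Figure D1:**
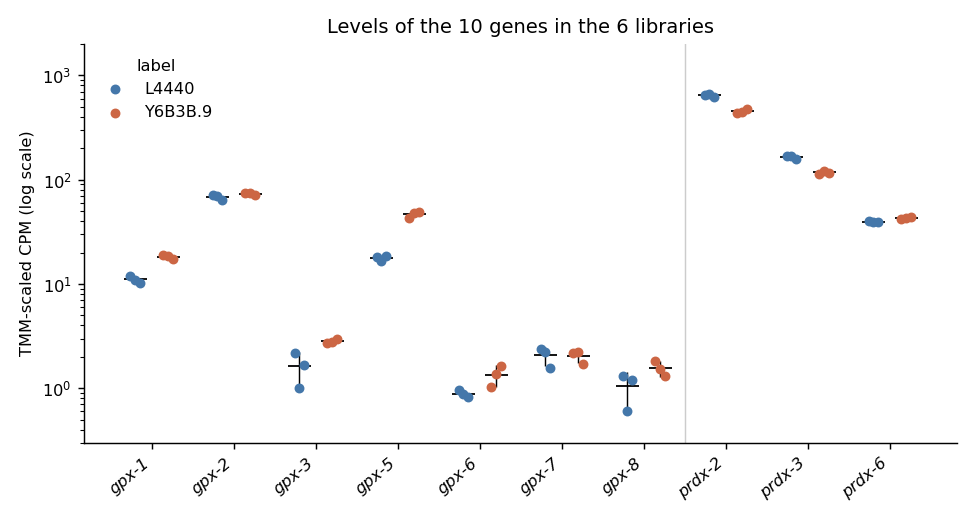
TMM-scaled CPM (vertical log axis) of each gene in each library, with points for the 3 libraries of each label, a black bar at the mean and a vertical line for 1 SD. The points of gpx-5 and gpx-1 lie higher under the Y6B3B.9 label (means 46.8 and 18.26 CPM) than under L4440 (17.8 and 11.04), those of prdx-2 and prdx-3 lie lower, and those of gpx-7 and gpx-8 overlap.

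The largest change was that of gpx-5 (WBGene00007516), a glutathione peroxidase gene of 5 exons on the plus strand of chromosome X at 9584668 to 9586344 in build WBcel235. Its libraries stood at 43.1, 48.3 and 49.0 CPM under Y6B3B.9 and at 18.0, 16.8 and 18.5 CPM under L4440. The lowest library of the first label was thus more than double the highest of the second. The mean was 46.8 ± 3.22 against 17.8 ± 0.893 CPM (SD, n = 3 each), a ratio of 2.64, which is 1.395 on the log2 scale (SE 0.069, BH-adjusted p = 1.57e-10). Its change exceeded that of 88.4% of tested genes. It was also the only member with a called change of at least 2-fold, a size reached by 33.8% of tested genes, 23.6% higher and 10.2% lower. The change was between 1.01 and 1.69 over all 16 alternative fits and past the threshold in each.

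The next gene downstream on the same strand is gpx-3 (WBGene00007517), which starts 1597 bases after gpx-5 ends and spans 9587942 to 9588879 of chromosome X. It took far fewer reads: 90, 90 and 75 under the Y6B3B.9 label and 55, 25 and 49 under L4440. In CPM these were 2.70, 2.80 and 2.95 against 2.20, 1.00 and 1.68. The groups did not overlap, but the L4440 libraries spread by more than 2-fold. The difference came to 0.78 on the log2 scale (SE 0.21, BH-adjusted p = 0.00351). It was 0.51 without L4440 replicate 2, the lowest library, and 0.35 and no longer called with the length trend removed (BH-adjusted p = 0.147, within 0.000391 to 0.147 over the alternatives).

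gpx-1 (WBGene00009165) rose from 11.89, 10.97 and 10.27 CPM under L4440 to 18.8, 18.5 and 17.4 CPM under Y6B3B.9. The 2 sets of libraries were well separated, and the difference was 0.73 on the log2 scale (SE 0.082, BH-adjusted p = 1.06e-06). With the length trend removed it came to 0.13 and was not called (BH-adjusted p = 0.158, the highest over the alternatives, the lowest being 1.74e-11). The gene lies on the plus strand of chromosome I at 9780349 to 9781413, and its last 90 bases overlap exons of drsh-1, the gene of the microRNA processing enzyme Drosha, on the other strand. Because the kit kept no strand information, a read in that overlap cannot be assigned to either gene. drsh-1 went the other way, from 204.8 ± 0.692 CPM under L4440 to 125.4 ± 16.0 CPM under Y6B3B.9 (SD, n = 3 each), or -0.71 on the log2 scale (SE 0.071), and the part of the overlap in the count of gpx-1 was not tested.

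gpx-2 (WBGene00011045; chromosome II, plus strand, 14866766 to 14869671) had the most reads of the glutathione peroxidase genes, between 1741 and 2479 per library. Its CPM values were 74.3, 74.1 and 71.2 under Y6B3B.9 and 71.2, 70.0 and 63.4 under L4440, so that the lowest value of the first label and the highest of the second were 71.2 each at this rounding. The log2 change of 0.10 was not called (95% interval -0.0104 to 0.22, BH-adjusted p = 0.0828; lowest 1.02e-05 and highest 0.919 among the alternatives). It was called higher with library totals (0.39) or the 1 CPM filter (0.20) and lower once the length trend was removed (-0.23), and was -0.0477 with DESeq2's size factors. The interval does not reach the change of gpx-1 or gpx-5.

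The remaining glutathione peroxidase genes had at most 72 reads in any library, and their changes were measured less precisely. gpx-6 (WBGene00020373; chromosome IV, plus strand, 8222202 to 8223461) had 34, 44 and 42 reads under Y6B3B.9 and 24, 22 and 24 under L4440, with a log2 change of 0.58 (95% interval 0.0791 to 1.08; BH-adjusted p = 0.0319). gpx-8 (WBGene00018850; chromosome I, minus strand, 10782115 to 10782890) had 61, 49 and 33 against 33, 15 and 35 reads, with a log2 change of 0.58 (95% interval 0.0302 to 1.12; BH-adjusted p = 0.0477). Both were above 0 in every alternative, but gpx-6 missed the threshold in 8 of 16 (BH-adjusted p from 0.00311 to 0.582 over all) and gpx-8 in 9 of 16 (0.0066 to 0.351), including DESeq2's size factors for both. Among the fits without 1 library, gpx-6 missed it without replicate 2 or 3 of either label. gpx-8 missed it without Y6B3B.9 replicate 1 or 2 or L4440 replicate 2 or 3. gpx-8 rested on L4440 replicate 2 in particular, without which its change was 0.29. gpx-7 (WBGene00019846; chromosome X, minus strand, 7798949 to 7799780) had 72, 72 and 43 against 60, 56 and 46 reads. Its log2 change was -0.0096 with a 95% interval from -0.42 to 0.40 (BH-adjusted p = 0.964; lowest 0.0319 and highest 0.965 among the alternatives), an interval wide enough to hold the changes of gpx-2 and of prdx-6. A further gene of the family, gpx-4, is not among the 10 and was added after its values were seen; it stood at 2.61 ± 0.485 CPM against 1.31 ± 0.127 (SD, n = 3 each), a difference of 1.00 on the log2 scale (SE 0.19, BH-adjusted p = 0.000194), and was called higher in all 16 alternatives.

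The peroxiredoxin prdx-2 (WBGene00006434; chromosome II, plus strand, 5378195 to 5379631) was the most abundant of the 10 genes. Under Y6B3B.9 it was at 434, 449 and 472 CPM, and under L4440 at 654, 661 and 620 CPM. Every library of the first label lay below every library of the second. The mean under Y6B3B.9, 452 ± 19.3 CPM, was lower than the 645 ± 21.8 CPM under L4440 (SD, n = 3 each) by -0.51 on the log2 scale (SE 0.052, BH-adjusted p = 3.34e-07). The mitochondrial prdx-3 (WBGene00011110; chromosome III, plus strand, 4407444 to 4408437) went from 167, 170 and 159 CPM to 113, 122 and 117 CPM. Its groups were as clearly apart, and they differed by -0.50 on the log2 scale (SE 0.049, BH-adjusted p = 2.56e-07). Both genes were below 0 in all 16 alternatives. Scaling by library totals gave the smallest changes (-0.22 for prdx-2 and -0.20 for prdx-3), and removal of the length trend the largest (-0.91 and -0.95). Both missed the threshold on the deposited RPKM values (-0.32 and -0.30 with a pseudocount of 0.1), which carry a scaling fault.

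prdx-6 (WBGene00021401; chromosome IV, plus strand, 218552 to 220855) did not fall with the other two. It was at 42.0, 43.3 and 44.3 CPM under Y6B3B.9 and at 40.3, 39.3 and 39.4 CPM under L4440, narrowly without overlap. Its change of 0.12 on the log2 scale (SE 0.052, BH-adjusted p = 0.0396) lay below the median of all genes and rested on the settings. It missed the threshold in 10 of 16 alternatives, 5 of them fits without 1 library: L4440 replicate 1, 2 or 3 (0.12, 0.0885 and 0.11) or Y6B3B.9 replicate 2 or 3 (0.12 and 0.0993). The change was -0.0281 with DESeq2's size factors, -0.31 once the length trend was removed and 0.41 by library totals. In 8 of the 10 genes the libraries of the 2 labels did not overlap in CPM, gpx-7 and gpx-8 being the others, beside 85.4% of all tested genes.

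**Figure D2:**
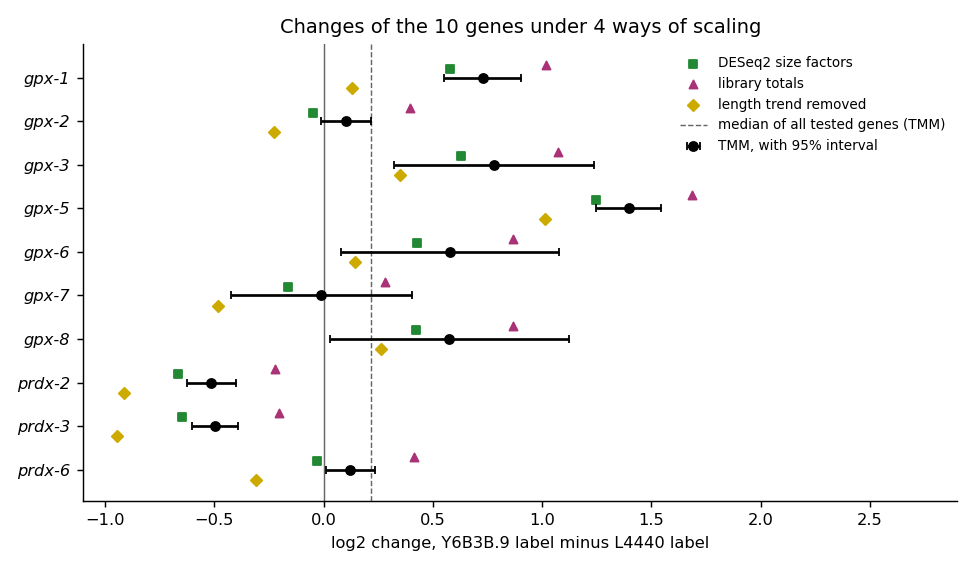
Log2 change of each gene (horizontal axis, Y6B3B.9 label minus L4440 label) with TMM scaling and its 95% interval (black), with DESeq2's size factors, with library totals and with the trend on gene length removed; the dashed line is the median of all tested genes at 0.22. gpx-5 lies above 0 and prdx-2 and prdx-3 lie below 0 under all 4, while gpx-2, gpx-7 and prdx-6 fall on either side of 0.

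All 10 genes have short transcripts, and log2 changes in these libraries varied with gene length. The lengths implied by the deposited counts and RPKM ran from 0.568 to 1.11 kb, with a median of 0.799 kb, against a median of 1.30 kb for all tested genes. Among the 4214 tested genes within the members' length range the median log2 change was 0.43, and 53.0% were called higher and 28.4% lower. Among the 8579 longer genes it was -0.0496. The 95% intervals of gpx-3, gpx-6 and gpx-8 held the median of 0.43, and the calls of gpx-1, gpx-3, gpx-6 and gpx-8 were lost once the length trend was removed. The calls of gpx-5, prdx-2 and prdx-3 were kept there, at 1.01, -0.91 and -0.95.

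Ratios of reads within a library do not depend on how libraries are scaled to each other. For every 100 peroxiredoxin reads there were 24.4, 24.2 and 22.9 glutathione peroxidase reads under Y6B3B.9 and 12.5, 11.8 and 11.9 under L4440. The ratio of the 2 families was thus about double under the Y6B3B.9 label in every library. Summed over each family, the 7 glutathione peroxidase genes stood at 146.0 ± 2.49 against 102.6 ± 5.23 CPM and the 3 peroxiredoxin genes at 612 ± 22.3 against 851 ± 28.1 CPM (SD, n = 3 each). Most of the difference in the glutathione peroxidase sum was gpx-5, at 46.8 against 17.8 CPM. gpx-2, the largest part of that sum, was at 73.2 against 68.2 CPM and was not called.

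Within the families, 5 pairs of genes were compared by their read ratio. The ratio of prdx-2 to prdx-3 was 3.84, 3.68 and 4.03 under Y6B3B.9 and 3.91, 3.88 and 3.91 under L4440. The mean log2 ratios were 1.94 ± 0.0668 and 1.96 ± 0.00609 (SD, n = 3 each), closer to each other than the spread among the Y6B3B.9 libraries (exact two-sided permutation p = 0.7, adjusted over the 5 pairs 0.7). The ratio of prdx-2 to prdx-6 was 10.3, 10.4 and 10.6 under Y6B3B.9 and 16.2, 16.8 and 15.8 under L4440, without overlap, a difference of -0.64 on the log2 scale. The ratio of gpx-1 to gpx-2 was 0.253, 0.250 and 0.245 against 0.167, 0.157 and 0.162, also without overlap, a difference of 0.62. Both of these pairs reached the lowest exact permutation p that the design allows (p = 0.1, adjusted over the 5 pairs 0.25), so neither could pass 0.05. The ratios of gpx-3 to gpx-5 (difference -0.55) and of gpx-6 to gpx-7 (difference 0.58) overlapped between the labels (exact permutation p = 0.2 each, adjusted 0.25).

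**Figure D3:**
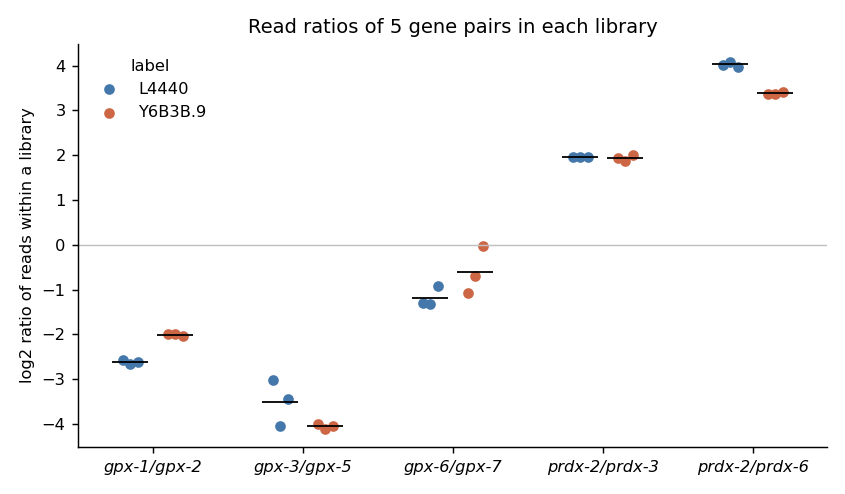
Log2 ratio of the reads of 2 genes within each library (vertical axis) for 5 pairs, with 3 points for each label and a bar at the mean. The prdx-2/prdx-3 ratio sits near 1.94 to 1.96 under both labels, while gpx-1/gpx-2 and prdx-2/prdx-6 are separated by 0.62 and -0.64.

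Levels between genes were compared as CPM per kb of gene length. Under L4440 the order ran prdx-2 (738 CPM per kb), prdx-3 (215), gpx-2 (64.1), prdx-6 (49.5), gpx-1 (19.4 ± 1.43, SD, n = 3) and gpx-5 (19.4 ± 0.977), then gpx-7 (2.86 ± 0.602), gpx-3 (2.05 ± 0.754), gpx-6 (1.13 ± 0.0866) and gpx-8 (0.938 ± 0.347). gpx-1 and gpx-5 were neighbours that did not differ by more than their spread. gpx-6 and gpx-8 differed by more than the SD of gpx-6 but less than that of gpx-8. gpx-7 and gpx-3 differed by more than the SD of either, though their ranges of 1 SD around the mean overlapped. Under Y6B3B.9, gpx-5 moved up to 51.2 ± 3.53 CPM per kb, above gpx-1 at 32.1 ± 1.30. It stayed below prdx-6 at 53.9 ± 1.47, by less than the SD of gpx-5 but more than that of prdx-6. The length used for gpx-8, 1.11 kb, comes from the authors' values, whereas the longest transcript of the Ensembl 115 annotation has 438 spliced bases, so its level per length depends on the annotation.

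The make-up of the glutathione peroxidase family shifted accordingly. Of the summed CPM per kb of its 7 genes, gpx-2 held 58.3% under L4440 and 42.6% under Y6B3B.9, and gpx-5 held 17.7% and 31.7%. gpx-1 held 17.7% and 19.9%, and the other 4 genes held at most 2.60% each under either label. Among the 3 peroxiredoxin genes prdx-2 held 73.6% and 71.4%, prdx-3 held 21.5% and 21.1%, and prdx-6 held 4.94% and 7.46%.

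**Figure D4:**
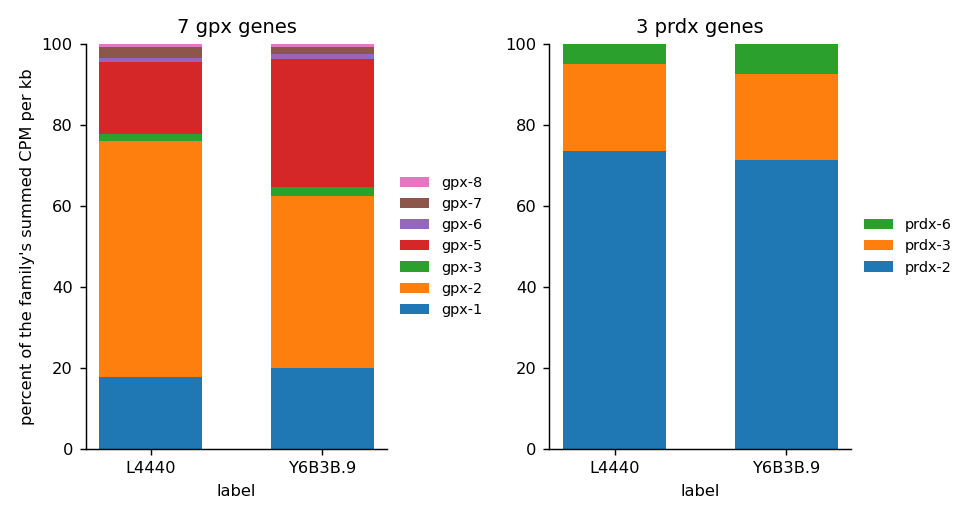
Percent of each family's summed CPM per kb (vertical axis) held by each gene, for the 7 glutathione peroxidase genes and the 3 peroxiredoxin genes, from the group means of 3 libraries. Under L4440 gpx-2 holds 58.3% of its family, and under Y6B3B.9 it holds 42.6% with gpx-5 at 31.7%, while prdx-2 holds over 70% of its own under both labels.

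Related genes were counted in lists, beside the 46.4% of all tested genes called higher and the 37.7% called lower. A share of a list near these values is no result about the list. The genes that make and recycle glutathione were lower under the Y6B3B.9 label. All 4 tested fell, with a median log2 change of -0.44. By library totals the median was -0.15 and 2 of the 4 were called lower, and on the deposited RPKM 1 was. gsr-1, the glutathione reductase gene, fell most, from 240 ± 8.17 CPM under L4440 to 119.5 ± 4.20 CPM under Y6B3B.9 (SD, n = 3 each), or -1.01 on the log2 scale (SE 0.049, BH-adjusted p = 1.33e-10), and it was called in all 16 alternatives. gss-1 (glutathione synthetase, -0.50) and E01A2.1 (the regulatory subunit of glutamate-cysteine ligase, -0.38) fell as well, but both missed the threshold on the deposited RPKM and E01A2.1 also by library totals (-0.0877). gcs-1 (its catalytic subunit) had a log2 change of -0.17, but 0.12 with library totals, and its call was also lost with the 1 CPM filter (-0.071) and once the length trend was removed (-0.0376). Of the 5 glutaredoxin genes, which reduce disulfides with glutathione, glrx-22 (0.54) and glrx-10 (0.30) rose and glrx-3 (-0.22) and glrx-5 (-0.20) fell. The first 2 were below 0 with the length trend removed and the other 2 above 0 with library totals, so these directions rested on the scaling. The list's median was -0.14, and 0.16 with library totals.

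In the thioredoxin system, 5 of 9 tested genes were higher and 3 lower, with a median log2 change of 0.18, close to the 0.22 of all tested genes (-0.0778 with the length trend removed, where 2 were higher and 4 lower). sesn-1, the sestrin gene, rose from 31.7 ± 1.29 CPM under L4440 to 67.9 ± 5.39 CPM under Y6B3B.9 (SD, n = 3 each), or 1.10 on the log2 scale (SE 0.064, BH-adjusted p = 7.76e-10). trx-3, an intestinal thioredoxin gene, rose by 1.33 on the log2 scale and the thioredoxin-like txl-1 fell by 0.76, and these 3 calls held in all alternatives. trx-1, a thioredoxin of sensory neurons, was called at 1.11 with under 1 CPM and overlapping groups, and missed the threshold in 7 of 15 alternatives, among them the fits without L4440 replicate 1 or 3 or Y6B3B.9 replicate 2 or 3. trx-2, the mitochondrial thioredoxin gene, was at -0.28 and trxr-1, the cytosolic thioredoxin reductase gene, at -0.26, but at 0.0111 and 0.0285 with library totals. trx-4 was at 0.30 and msra-1, a methionine sulfoxide reductase gene, at 0.18, but at -0.46 and -0.27 once the length trend was removed, and the call of msra-1 was also lost without Y6B3B.9 replicate 1 or 3 or L4440 replicate 2 or 3. The filter left out trx-5.

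Of the 8 genes listed for the supply of NADPH, 7 fell and 1 rose, beside 37.7% and 46.4% of all tested genes. Their median log2 change was -0.29. The transketolase gene tkt-1 (-0.87), the cytosolic isocitrate dehydrogenase gene idh-1 (-0.79) and the malic enzyme gene men-1 (-0.72) fell, and all 3 calls held in all alternatives. nnt-1, the gene of the mitochondrial transhydrogenase, rose from 12.7 ± 0.772 CPM under L4440 to 28.4 ± 2.01 CPM under Y6B3B.9 (SD, n = 3 each), or 1.16 on the log2 scale (SE 0.078, BH-adjusted p = 3.80e-09). With library totals the list's median was 0.00455 and 3 of its genes were called lower.

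Enzymes that act beside the 10 on superoxide and peroxide divided. Of 8 superoxide dismutase and catalase genes, 4 rose and 2 fell, beside 46.4% and 37.7% of all tested genes. Their median log2 change was 0.51. That median was 0.0778 once the length trend was removed and 1.00 with the 1 CPM filter. The catalase genes ctl-2 (1.21) and ctl-1 (1.24) rose and ctl-3 (-0.95) fell, though these are close copies whose reads could be split among them. The mitochondrial superoxide dismutase genes went apart, with sod-3 at 1.20 and the more abundant sod-2 at -0.67, and the extracellular sod-4 rose by 0.91 on the log2 scale. Of 10 genes listed with the dual oxidases and haem peroxidases, enzymes that make or use hydrogen peroxide, 6 rose and 0 fell. The median of this list was 0.44. In the DESeq2 Wald test 3 were higher and 1 lower, and once the length trend was removed 10 were higher. skpo-1, a haem peroxidase gene, rose from 530 ± 34.2 CPM under L4440 to 782 ± 32.9 CPM under Y6B3B.9 (SD, n = 3 each), or 0.56 on the log2 scale. tsp-15 (0.60), skpo-2 (1.44) and duox-2 (1.34) rose too, the last 2 at mean levels of at most 1.08 CPM. The call of duox-2 was lost in 3 of 15 alternatives, the DESeq2 Wald test and both fits on the deposited RPKM. Over all 6 lists 36 of 44 tested genes were called, 18 higher and 18 lower, beside the 46.4% and 37.7% of all tested genes; with library totals 8 were called lower.

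**Figure D5:**
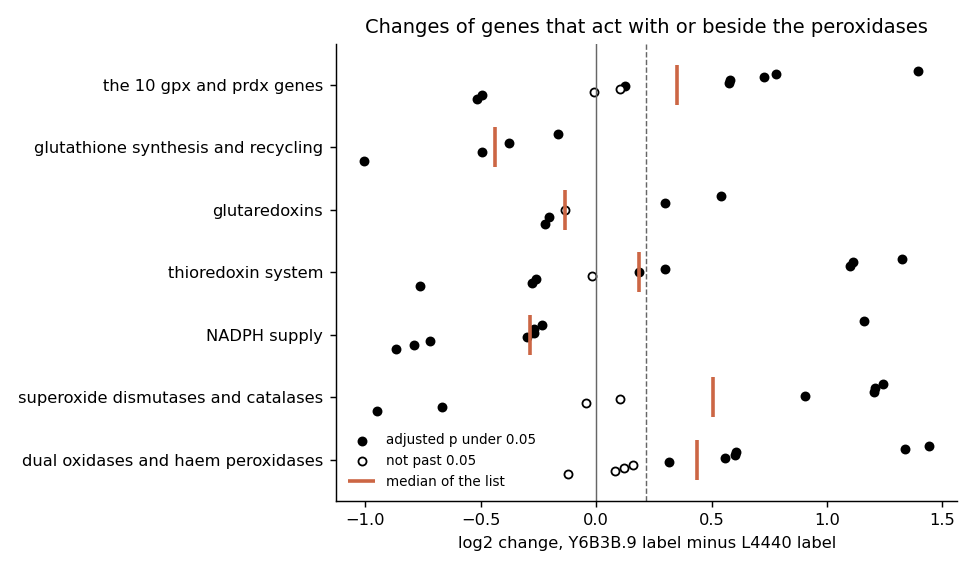
Log2 change (horizontal axis, Y6B3B.9 label minus L4440 label) of each tested gene of the 10 peroxidase genes and of 6 related lists; filled points are past an edgeR adjusted p of 0.05, orange bars are list medians and the dashed line is the median of all tested genes. All 4 genes of glutathione synthesis and recycling lie below 0 (gcs-1 was above 0 with library totals), and the dual oxidase and haem peroxidase list has a median of 0.44.

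Markers of tissues were counted as well, beside the 46.4% of all tested genes called higher and the 37.7% called lower. A share of markers near these values is no result about a tissue. All 12 germline and oocyte markers fell, and their summed level was 5683 to 5949 CPM under Y6B3B.9 against 13243 to 13647 CPM under L4440. Of 7 embryo markers, 5 were tested and fell (109.4 to 110.5 against 238 to 274 CPM summed), and med-1 had no read in any library. The filter left out end-1, which went the other way, with 13, 9 and 6 reads under Y6B3B.9 and 3, 4 and 3 under L4440. Most of the embryo sum was pie-1, at 95.3 ± 2.57 CPM under Y6B3B.9 against 153.8 ± 2.38 under L4440 (SD, n = 3 each). All 8 intestinal markers rose (49107 to 51551 against 36033 to 37685 CPM). Most of this sum was vit-6 and vit-2, with ratios of 1.35 and 1.38 between the Y6B3B.9 and L4440 means. Those of the other intestinal markers ran from 1.41 to 2.34. All 5 tested pharynx markers rose (96.9 to 107.0 against 58.5 to 62.0 CPM). Of 6 markers each, 5 of the hypodermis rose and 1 fell (220 to 226 against 239 to 248 CPM), 4 of neurons rose and 1 fell (302 to 328 against 254 to 269 CPM), and 3 of body muscle rose and 1 fell (1235 to 1370 against 792 to 988 CPM). Most of the hypodermis sum was lin-26, the marker that fell, at 133.5 ± 2.44 CPM under Y6B3B.9 against 194.8 ± 7.46 under L4440 (SD, n = 3 each). Of 7 tested sperm markers, 3 rose and 2 fell (29.8 to 33.7 against 30.8 to 32.5 CPM). These libraries are of whole worms, in which fewer cells of a type and less RNA per cell cannot be told apart, and the part of these shifts in the changes of the 10 genes was not tested.

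Genes whose pattern over the 6 libraries was most like that of a member were sought for the member with the highest level per length and for the one with the smallest p. Likeness was the Euclidean distance between log2 CPM values centred on each gene's mean, among 8866 genes with at least 5 CPM. Nearest to prdx-2 were par-5, a gene of a 14-3-3 protein (distance 0.0383, log2 change -0.54), dscc-1 (0.0430, -0.53) and dhfr-1, the dihydrofolate reductase gene (0.0480, -0.52). Nearest to gpx-5 were skr-3, a Skp1-related gene (distance 0.0915, log2 change 1.35), dod-19 (0.0992, 1.43) and T01E8.8 (0.10, 1.37). With 2 groups of 3 libraries such a distance mostly reflects the size of the difference between the labels.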

How the data were processed

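Counts and RPKM of 6 libraries were used. The perturbation label set the group, and replicate numbers follow record order. A TruSeq RNA kit v2, which keeps no strand information, was used per the labels' protocols. Reads were processed against build WBcel235 with featureCounts 1.4.6-p4, STAR 2.4.1d and bcl2fastq 1.8.4, per the submitters' processing notes. Not given in the sources used here were tool options, annotation release and strand setting. Whole-number raw counts per gene were deposited by the authors. The RPKM values the authors deposited had library totals recycled along the table: for 4330 of 4330 genes with at least 1000 reads per library, lengths implied by counts and RPKM matched within 0.1% with recycled totals, and for 0 with each library's own. RPKM therefore served for gene lengths and as an alternative. Between 18195 and 20455 features had a read per library. Pairs of replicates differed by more than sampling noise (chi-square per degree of freedom 3.79 to 14.0).

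Counts were tested with edgeR 4.0.16 (R 4.3.3; filterByExpr, TMM, quasi-likelihood test, robust=TRUE) with Benjamini-Hochberg adjustment over 14265 genes. Standard errors came from the F statistic. TMM factors were 1.10 to 1.11 for Y6B3B.9 and 0.895 to 0.910 for L4440. Pair ratios used 0.5 added reads. The test was tried on simulated data in which few genes changed, in either direction at random. Most genes were called in the libraries themselves, so that trial does not bear on the scaling here. Positions came from the Ensembl 115 annotation of WBcel235, which held 46449 of the 46748 features, and 43693 were matched to a name. The alternatives used DESeq2 1.42.0 and limma 3.58.1 besides edgeR, and figures matplotlib 3.10.9.

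The members and lists were chosen with earlier results of these data known. The text names the 10 members, Y6B3B.9, up to 4 genes per related list by smallest p, called genes on a side of 5 or fewer, and the 3 nearest genes of 2 members. gpx-4, drsh-1, end-1, pie-1, vit-2, vit-6 and lin-26 were named after their values were seen.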

Additional observations from a re-analysis of the deposited data

How the results depend on the processing

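The fits were repeated with library totals, DESeq2's size factors, a filter of 1 CPM in 3 libraries, no filter, the DESeq2 Wald test, limma-voom, robust=FALSE, removal of the length trend, limma-trend on deposited log2(RPKM + 0.1) and log2(RPKM + 1), and fits without each library; the causes of the differences below were not tested. No paired analysis was possible because the labels give the 2 groups no shared replicate numbers. Of the 10 genes, 5 were called with DESeq2's size factors, no filter, the Wald test and both RPKM fits. Of these, 3 were higher with DESeq2's size factors, no filter and the Wald test, and 0 were lower in the RPKM fits. Removing the length trend gave 1 higher and 5 lower. Without 1 library 5 to 7 were called, 3 to 5 higher and 2 lower. For all genes 11560 to 12050 were called without 1 library (6320 to 6670 higher, 5240 to 5401 lower), and 2762 and 2747 were lower on RPKM + 0.1 and RPKM + 1. Of the 44 related genes 34 to 36 were called without 1 library (16 to 17 higher, 18 to 19 lower), 8 were lower with library totals, 11 higher in the Wald test, and 22 called, 7 of them lower, in each RPKM fit. The summed log2 ratio of the glutathione peroxidase genes was 0.51, 0.36 with DESeq2's size factors, 0.80 with library totals and 0.46 to 0.53 without 1 library. That of the peroxiredoxin genes was -0.47, and -0.63, -0.18 and -0.51 to -0.45 in turn. Without 1 library the log2 change of Y6B3B.9 was 0.60 to 0.73, and the pair differences were 0.60 to 0.65 (gpx-1/gpx-2), -0.81 to -0.31 (gpx-3/gpx-5), 0.30 to 0.82 (gpx-6/gpx-7), -0.0535 to 0.0132 (prdx-2/prdx-3) and -0.66 to -0.61 (prdx-2/prdx-6).

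Some log2 changes turned sign. gpx-2 was at -0.0477 with DESeq2's size factors, -0.0479 in the Wald test and -0.23 with the length trend removed. gpx-7 was at 0.28 with library totals, 0.0851 with the 1 CPM filter, 0.00966 in limma-voom, 0.17 and 0.13 on RPKM, and between -0.20 and 0.0913 without 1 library, above 0 without L4440 replicate 1, L4440 replicate 2 or Y6B3B.9 replicate 3. prdx-6 was at -0.0281 with DESeq2's size factors, -0.0281 in the Wald test and -0.31 with the length trend removed. With library totals gcs-1 was at 0.12 (0.0275 and 0.0272 on RPKM), glrx-3 at 0.0701, glrx-5 at 0.0885, trx-2 at 0.0111 and trxr-1 at 0.0285. With the length trend removed glrx-22 was at -0.14, glrx-10 at -0.46, trx-4 at -0.46 and msra-1 at -0.27. Depth limits gpx-3, gpx-6, gpx-7 and gpx-8, which had 15 to 90 reads per library.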
